A study of Homo sapiens with 30 samples.

Results

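Plasma cell programme genes were followed across 2 histone marks in OCI-Ly1 cells: the transcription factors PRDM1, IRF4 and XBP1, the surface proteins SDC1, TNFRSF17 and CD38, and MZB1, JCHAIN and ELL2, which serve antibody assembly and secretion. They are 9 of the 59792 genes of the RefSeq gene table for GRCh38.p14, chosen by name, and every deposited peak inside one of them or within 5 kb of it was taken. That gave 13 of 21268 peaks of H3K4me3 (trimethylation of lysine 4 of histone H3, a mark of active promoters) and 32 of 63580 peaks of H3K27ac (acetylation of lysine 27, a mark of active promoters and enhancers). Coordinates are on GRCh38, the build in the submitters' processing notes.

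When a B cell becomes a plasma cell, IRF4 and Blimp-1, the repressor that PRDM1 encodes, shut down B-cell identity genes such as PAX5 and BCL6. XBP1 then widens the endoplasmic reticulum for antibody secretion. Germinal centre B cells, from which OCI-Ly1 lymphoma cells derive, hold most of this programme in check through BCL6.

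OCI-Ly1 is an established human diffuse large B-cell lymphoma line. The cells received JIB-04, which inhibits histone demethylases of the Jumonji family, at a dose of 150 nM or 500 nM, or its vehicle DMSO, and the labels name no other difference between the groups. Each mark had 2 libraries per treatment, 12 in all, so every mean is over n = 2. No source says whether the replicates came from separate cultures, so p-values measure the spread between these samples, and the length of treatment is not given in the sources used here. The 500 nM comparisons with DMSO and with 150 nM share the 500 nM libraries, and the comparisons with DMSO share the DMSO libraries.

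H3K4me3 libraries held 9686420 to 12327122 counts in peaks and H3K27ac libraries 4360660 to 5410292. All 8 B-cell markers looked up (MS4A1, CD79A, CD79B and PAX5 among them) had peaks of both marks, with a summed H3K4me3 level of 921 and 884 CPM in DMSO and of 847 and 823 CPM at 500 nM. H3K4me3 peaks lay at 2 of 6 T-cell, 2 of 6 myeloid, 1 of 5 erythroid and 3 of 5 epithelial markers. CD3E, MPO, GATA1 and CDH1 had no peak of this mark. H3K27ac peaks lay at 5 of 6 T-cell markers (all but CD5), 1 of 6 myeloid, 1 of 5 erythroid and 1 of 5 epithelial markers. The summed H3K4me3 level in DMSO was 44.4 and 46.5 CPM for T-cell and 87.1 and 88.2 CPM for erythroid markers. For epithelial markers it was 35.9 and 37.0 CPM. The summed H3K4me3 level of the myeloid markers was 6.50 and 5.08 CPM in DMSO and 10.0 and 9.58 CPM at 500 nM. Its part in the results was not tested. The 150 nM libraries of H3K4me3 differed from each other by less than counting noise (chi-square per degree of freedom 0.941), as did DMSO replicate 1 and 150 nM replicate 1 (0.962). Libraries of different groups came as close, so this closeness cannot tell whether a replicate pair came from the same culture. The H3K4me3 pairs of DMSO (1.12) and of 500 nM (1.21) were also near counting noise. All were kept as separate samples. In H3K27ac the 150 nM libraries stood furthest apart among replicate pairs (2.26, against 1.37 in DMSO and 1.29 at 500 nM).

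Promoter windows of the genes, 250 bases before to 50 after a RefSeq start, were read from RefSeq (GRCh38.p14), which held 10 windows for 7 of the 9 genes. ELL2 and TNFRSF17 have no entry. The windows below are those of the genes whose H3K4me3 is described in most detail. They run 5′ to 3′ on the gene's own strand, with each CpG dinucleotide in capitals.

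The first 3 belong to genes with a rise in H3K4me3 at 500 nM, the next 2 to genes with a fall, and the last to a gene whose difference did not pass the test.
SDC1 promoter window, chr2:20225426-20225725, minus strand: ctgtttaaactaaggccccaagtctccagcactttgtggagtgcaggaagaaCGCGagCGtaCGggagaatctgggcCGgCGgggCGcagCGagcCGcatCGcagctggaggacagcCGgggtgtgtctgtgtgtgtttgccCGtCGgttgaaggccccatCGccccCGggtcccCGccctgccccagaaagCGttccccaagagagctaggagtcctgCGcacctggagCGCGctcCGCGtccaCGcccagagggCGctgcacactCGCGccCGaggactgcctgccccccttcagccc
XBP1 promoter window, chr22:28800520-28800819, minus strand: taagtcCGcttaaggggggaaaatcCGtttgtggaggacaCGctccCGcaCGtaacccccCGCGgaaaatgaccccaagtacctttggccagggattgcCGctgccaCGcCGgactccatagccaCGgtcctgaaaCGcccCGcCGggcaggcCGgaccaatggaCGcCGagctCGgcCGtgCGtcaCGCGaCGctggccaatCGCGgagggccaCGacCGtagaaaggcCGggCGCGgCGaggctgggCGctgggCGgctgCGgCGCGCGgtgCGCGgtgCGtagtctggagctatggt
IRF4 promoter window, chr6:391502-391801, plus strand: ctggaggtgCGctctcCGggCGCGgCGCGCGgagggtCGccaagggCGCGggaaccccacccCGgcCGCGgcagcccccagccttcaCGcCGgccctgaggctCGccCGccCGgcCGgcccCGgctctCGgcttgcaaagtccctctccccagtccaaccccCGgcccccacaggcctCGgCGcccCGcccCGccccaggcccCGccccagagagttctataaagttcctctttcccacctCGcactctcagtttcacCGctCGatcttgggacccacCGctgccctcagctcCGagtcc
CD38 promoter window, chr4:15778078-15778377, plus strand: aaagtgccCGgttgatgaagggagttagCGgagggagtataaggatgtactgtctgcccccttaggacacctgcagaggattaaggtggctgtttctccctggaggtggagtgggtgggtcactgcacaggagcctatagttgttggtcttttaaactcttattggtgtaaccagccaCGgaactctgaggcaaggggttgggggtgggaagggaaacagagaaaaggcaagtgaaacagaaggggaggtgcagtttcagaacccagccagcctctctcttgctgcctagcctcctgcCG
MZB1 promoter window, chr5:139389864-139390163, minus strand: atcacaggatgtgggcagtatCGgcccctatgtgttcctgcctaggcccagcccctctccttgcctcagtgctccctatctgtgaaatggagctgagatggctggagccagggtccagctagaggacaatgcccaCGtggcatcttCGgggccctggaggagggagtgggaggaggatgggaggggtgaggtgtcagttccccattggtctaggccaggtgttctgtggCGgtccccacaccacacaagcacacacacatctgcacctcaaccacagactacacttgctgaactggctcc
JCHAIN promoter window, chr4:70666459-70666758, minus strand: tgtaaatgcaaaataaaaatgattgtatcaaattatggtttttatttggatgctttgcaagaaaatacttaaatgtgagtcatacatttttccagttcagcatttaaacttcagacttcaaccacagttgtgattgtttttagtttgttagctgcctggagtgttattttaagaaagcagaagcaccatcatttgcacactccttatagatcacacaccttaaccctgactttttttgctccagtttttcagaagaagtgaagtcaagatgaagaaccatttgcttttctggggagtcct

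The windows differ widely in CpG content. The XBP1 window held 40 CpGs, that of IRF4 32 and that of SDC1 27, against a median of 14 over 35116 windows. CD38 and MZB1 held 4 each, and JCHAIN held 0. Further windows held 23 CpGs at XBP1, 23 at SDC1, and 14 and 8 at PRDM1. Of the 5 peaks with a called rise, those of SDC1, XBP1 and IRF4 have a window, all above the median, and the 2 peaks with a called fall have windows below it. Over all tested H3K4me3 peaks with a window, the 325 peaks with 0 to 4 CpGs were higher at 500 nM in 16.9% and lower in 37.2% of cases, the 961 with 5 to 14 in 16.5% and 24.9%, the 3730 with 15 to 28 in 14.9% and 18.7%, and the 5126 with 29 to 77 in 19.9% and 22.3%. The share of peaks that were higher thus did not follow the CpG count step by step, and it was lowest in the class that holds the SDC1 window of 27 CpGs.

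Short motifs were searched on both strands. CCAAT, the box bound by NF-Y, occurred 2 times in the XBP1 window shown and once each in the MZB1 and CD38 windows (34.6% of all windows hold it). CACGTG, an E-box of the kind bound by MYC and USF factors, occurred in the MZB1 window (7.26% of all). The TATAAA box was found in the IRF4 window (11.5% of all). GGGCGG, the core of a GC box, was found 4 times in the IRF4 window, 3 times in the other XBP1 window, and once each in the XBP1 window shown, both SDC1 windows and one PRDM1 window (45.0% of all).

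At 500 nM JIB-04, H3K4me3 rose at SDC1, TNFRSF17, XBP1, the upstream end of PRDM1 and IRF4, and it fell at CD38 and MZB1. The rise at SDC1 was 6.04-fold, those at TNFRSF17 and XBP1 were 1.50-fold and 1.49-fold, and the remaining changes were under 1.3-fold. JCHAIN and ELL2 peaks did not pass the test. In all, 7 of the 13 peaks were called at an adjusted p under 0.05 in edgeR's quasi-likelihood test with Benjamini-Hochberg adjustment, 5 higher and 2 lower. Over all 20402 tested peaks 39.4% were called, 20.7% higher and 18.7% lower, so a call at a single peak was common in this comparison. The median log2 fold change was 0.11 over the 13 peaks and -0.0063 over all peaks tested. Both 500 nM libraries lay above both DMSO libraries at 7 of the peaks and below both at 4, against 33.7% and 34.3% of all peaks. A sequencing library does not show whether more cells carried a mark or each cell carried more of it.

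**Figure D1:**
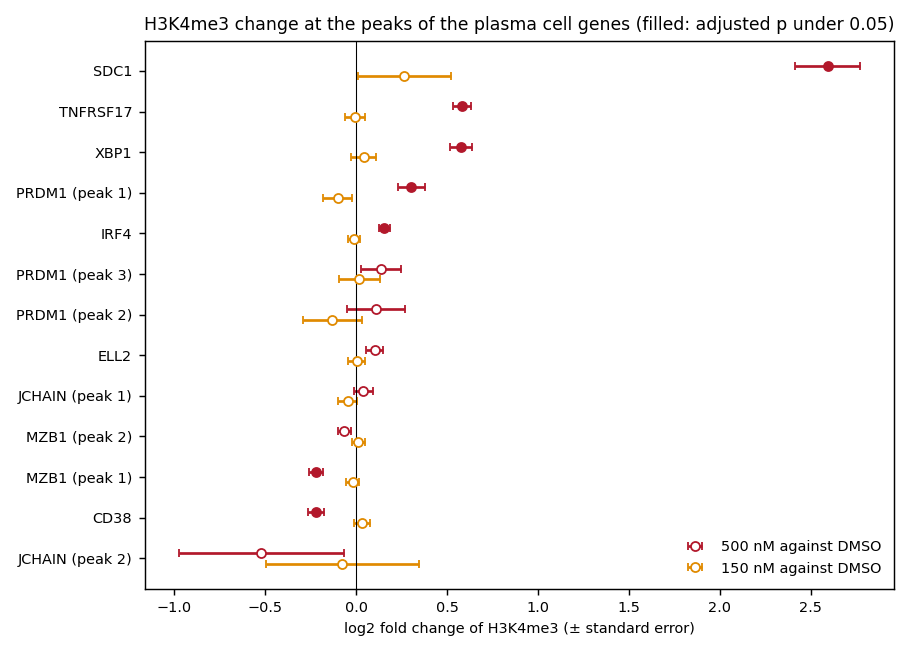
Log2 fold change of H3K4me3 (x axis, with standard error bars) at each of the 13 peaks (y axis), for 500 nM against DMSO in red and 150 nM against DMSO in orange; filled points passed an adjusted p of 0.05. SDC1 stands apart at 2.59, 7 of the red points are filled and no orange point is.

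PRDM1 encodes Blimp-1, the repressor that ends the B-cell programme, and it carried 3 H3K4me3 peaks. The first (chr6:105991811-105993078) lies over the upstream end of the gene model, where the promoter table has no window. It measured 27.8 and 30.0 CPM in DMSO, 26.5 and 27.1 CPM at 150 nM, and 36.4 and 34.4 CPM at 500 nM, where CPM are counts scaled to the reads in tested peaks of each library. Both 500 nM libraries were the highest of the 6 and did not overlap any other. From a DMSO mean of 28.9 ± 1.55 CPM to 35.4 ± 1.40 CPM (SD, n = 2), the log2 fold change was 0.30 ± 0.075 (SE, adjusted p = 8.28e-04 in edgeR), and against 150 nM it was 0.41 ± 0.076 (adjusted p = 1.73e-05). With DESeq2's Wald test in place of edgeR the adjusted p of the first was 0.0880, which misses the threshold.

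The other 2 PRDM1 peaks overlap annotated start windows of the gene. The peak at chr6:106085758-106086739 measured 8.08 and 8.35 CPM in DMSO and 7.44 and 7.54 CPM at 150 nM. At 500 nM it measured 9.52 and 8.07 CPM, which overlapped DMSO, and its 150 nM values lay below all of these. Its log2 fold change at 500 nM was 0.11 ± 0.16 (adjusted p = 0.612), and with loess offsets on abundance it was -0.066. The peak at chr6:106097275-106099001 measured 16.5 and 15.1 CPM in DMSO, 17.1 and 15.0 CPM at 150 nM, and 16.8 and 18.2 CPM at 500 nM. There the 500 nM values lay just above those of DMSO but overlapped those at 150 nM, and the log2 fold change was 0.14 ± 0.11 (adjusted p = 0.332). The only called change at PRDM1 was thus at its upstream end.

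IRF4, the factor whose dose drives B cells towards plasma cells, had a single H3K4me3 peak over its start (chr6:390811-395047), the highest per kilobase among the 9 genes. It measured 247 and 255 CPM in DMSO, 246 and 252 CPM at 150 nM, and 269.7 and 290.3 CPM at 500 nM. Both 500 nM libraries were above the other 4. The mean was 251 ± 5.29 CPM in DMSO and 280.0 ± 14.6 CPM at 500 nM (SD, n = 2), a log2 fold change of 0.15 ± 0.031 (adjusted p = 3.81e-05) or 1.11-fold. The peak held a mean of 2848 counts per library. Against 150 nM the value was 0.17 ± 0.031 (adjusted p = 1.12e-05).

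XBP1, which drives expansion of the secretory apparatus, had a single H3K4me3 peak over its start (chr22:28799326-28801239), measuring 37.9 and 36.3 CPM in DMSO, 37.0 and 39.6 CPM at 150 nM, and 55.4 and 55.4 CPM at 500 nM. The 500 nM libraries were almost equal and well above the other 4, which overlapped. The mean rose from 37.1 ± 1.09 to 55.4 ± 0.0580 CPM (SD, n = 2), a log2 fold change of 0.57 ± 0.061 (adjusted p = 1.25e-11) or 1.49-fold.

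SDC1 encodes syndecan-1 (CD138), the surface proteoglycan by which plasma cells are recognised. Its H3K4me3 peak at the gene's start (chr2:20223405-20225761) held 37 and 26 counts in DMSO, 37 in each 150 nM library, and 179 and 187 in the 500 nM libraries. In CPM these were 3.02 and 2.55 CPM in DMSO, 3.31 and 3.44 CPM at 150 nM, and 15.2 and 19.1 CPM at 500 nM. The 500 nM libraries stood far above the other 4, which lay close together. The mean rose from 2.79 ± 0.331 to 17.2 ± 2.74 CPM (SD, n = 2). The log2 fold change was 2.59 ± 0.18 (adjusted p = 1.26e-18), or 6.04-fold, and against 150 nM it was 2.33 ± 0.17 (adjusted p = 2.38e-17). Among all 20402 tested peaks this rise ranked 96 from the top.

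Weak H3K4me3 peaks were higher at 500 nM more often than strong ones. The tested peaks were split by edgeR's mean log2 CPM over the 6 libraries into 5 equal classes. The 500 nM libraries enter this mean, so the class of a peak depends in part on its own change. SDC1, at a mean of 83.8 counts a library, fell in the second lowest, where the median log2 fold change was 0.20 and 34.1% of peaks were called higher. In DMSO alone SDC1 held 37 and 26 counts. In the lowest class the median was 0.44, with 26.1% called higher. In the highest class, which holds IRF4 and MZB1, the median was -0.059, with 4.80% called higher and 34.2% lower. With loess offsets that remove this trend, SDC1 still had a log2 fold change of 2.38 (adjusted p = 2.36e-14). Leaving out any single library gave SDC1 values of 2.43 to 2.76.

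**Figure D2:**
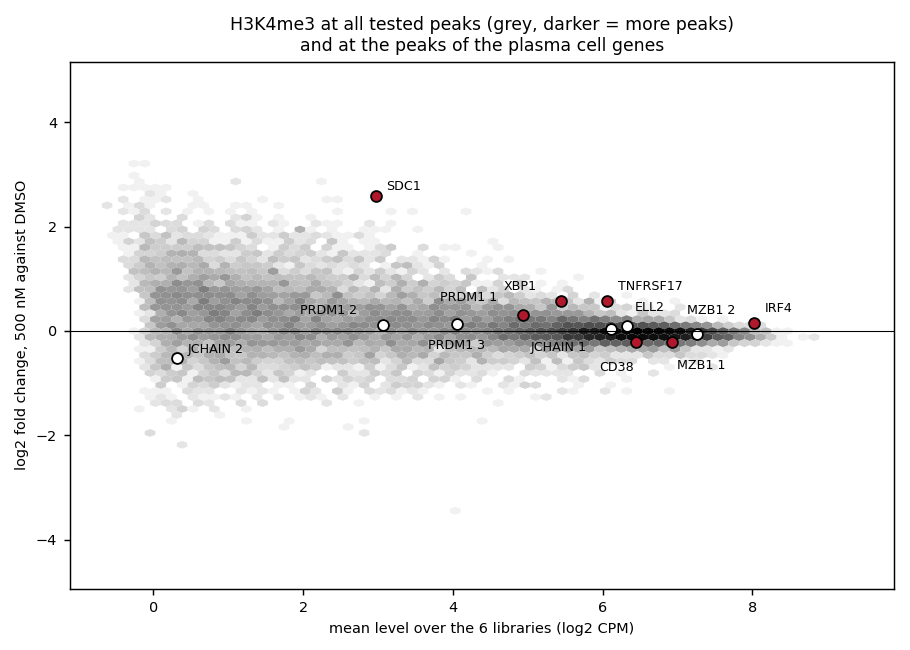
Log2 fold change of H3K4me3 at 500 nM against DMSO (y axis) against the mean level in log2 CPM over the 6 libraries (x axis), with all 20402 tested peaks in grey and the 13 peaks of the plasma cell genes as circles, filled where the adjusted p was under 0.05. SDC1, at 2.59, lies at the upper edge of the cloud for its level, while IRF4 (0.15) lies at the strong end, where the cloud is narrow.

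TNFRSF17 encodes BCMA, the receptor that supports plasma cell survival. Its H3K4me3 peak (chr16:11963566-11968843) spans the whole gene and also lies over NPIPB2 and UBL5P4, and NPIPB2 belongs to a family of near-identical copies, so part of the count may belong to those genes. The peak measured 58.3 and 55.7 CPM in DMSO, 56.7 and 57.0 CPM at 150 nM, and 87.3 and 83.3 CPM at 500 nM. Both 500 nM libraries were above the other 4, which lay close together. The mean went from 57.0 ± 1.84 to 85.3 ± 2.82 CPM (SD, n = 2), a log2 fold change of 0.58 ± 0.050 (adjusted p = 5.94e-15).

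CD38, an ectoenzyme that consumes NAD and is abundant on germinal centre B cells and plasma cells, went the other way. Its H3K4me3 peak over the start (chr4:15777884-15780450) measured 90.3 and 89.8 CPM in DMSO, 94.2 and 89.8 CPM at 150 nM, and 77.5 and 77.0 CPM at 500 nM. Both 500 nM libraries were the lowest of the 6. The mean fell from 90.0 ± 0.377 to 77.3 ± 0.380 CPM (SD, n = 2), a log2 fold change of -0.22 ± 0.046 (adjusted p = 7.95e-05), and against 150 nM the log2 fold change was -0.25 ± 0.046 (adjusted p = 8.97e-06).

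MZB1, an endoplasmic reticulum chaperone of immunoglobulin, also had less H3K4me3. The peak over the gene (chr5:139387379-139390268) measured 129 and 127 CPM in DMSO, 127 and 125 CPM at 150 nM, and 111 and 108 CPM at 500 nM, with both 500 nM libraries below the rest. The log2 fold change was -0.22 ± 0.039 (adjusted p = 5.71e-06). A neighbouring peak within 5 kb (chr5:139391339-139394753) lies over PROB1 and SPATA24, not over MZB1. It measured 157 and 151 CPM in DMSO, 158 and 152 CPM at 150 nM, and 150.3 and 144 CPM at 500 nM, with a log2 fold change of -0.06 ± 0.0364 (adjusted p = 0.156). Against 150 nM it was -0.08 (adjusted p = 0.0873), and it was called without 500 nM replicate 1 (0.0433).

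JCHAIN encodes the chain that joins polymeric IgA and IgM, and its broad H3K4me3 peak (chr4:70659981-70667057) measured 71.0 and 66.0 CPM in DMSO, 68.0 and 65.1 CPM at 150 nM, and 73.5 and 67.1 CPM at 500 nM. All 3 groups overlapped, and the log2 fold change at 500 nM was 0.0384 ± 0.052 (adjusted p = 0.589). A second, very weak peak before the gene (chr4:70667279-70667592, a mean of 11.7 counts per library) had a log2 fold change of -0.52 ± 0.45 (adjusted p = 0.379), and with loess offsets it was -1.12 and passed (0.0476). ELL2, an elongation factor that favours the secreted form of immunoglobulin mRNA, shares its peak (chr5:95960288-95962740) with CAST and LOC101929710. That peak measured 79.0 and 77.6 CPM in DMSO, 78.8 and 78.3 CPM at 150 nM, and 84.6 and 83.6 CPM at 500 nM. Both 500 nM libraries of ELL2 were above the other 4, yet the log2 fold change of 0.10 ± 0.046 missed the threshold (adjusted p = 0.0771). It passed with scaling by total count (adjusted p = 0.0158), with loess offsets (0.00802) and when peaks with a mean under 50 counts were left out (0.0273).

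**Figure D3:**
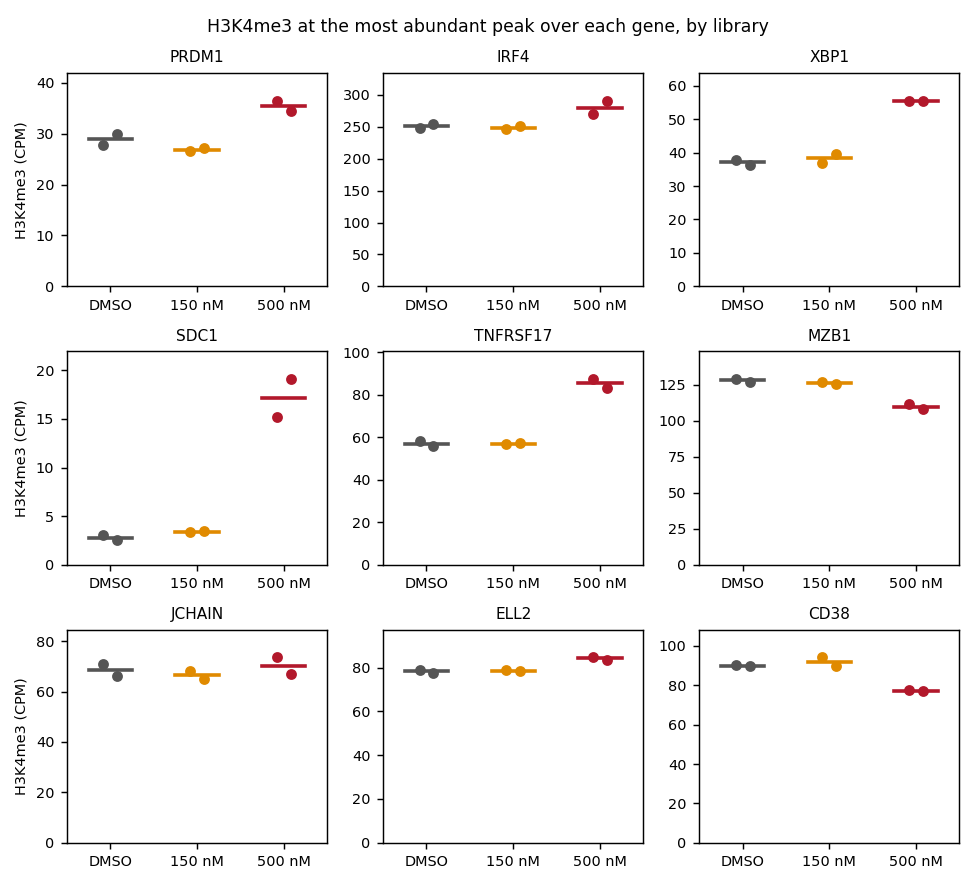
H3K4me3 in CPM (y axis, from 0, with its own range in each panel) at the most abundant peak over each of the 9 genes, by treatment (x axis); points are single libraries and lines are the means of 2. SDC1 goes from 2.79 CPM in DMSO to 17.2 CPM at 500 nM, CD38 and MZB1 are lower at 500 nM, and the DMSO and 150 nM points lie close together in every panel.

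At 150 nM no H3K4me3 difference from DMSO was called at these genes. The count was 0 of 13 peaks in edgeR and also 0 at an unadjusted p under 0.05, and over all peaks 0% were called (0 of 20402). DESeq2 called 0 of the 13 as well. The log2 fold changes ran from -0.13 at the second PRDM1 peak to 0.27 ± 0.26 at SDC1, where both 150 nM libraries (3.31 and 3.44 CPM) were above both DMSO libraries. Between the doses, 7 of the 13 peaks differed, 5 higher and 2 lower at 500 nM, against 39.2% of all peaks (20.5% higher and 18.6% lower).

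Counts were also summed over all peaks of a gene and fitted across 22113 genes, where CPM are scaled to the summed counts. For 500 nM against DMSO 8 of the 9 genes were called, 6 higher and 2 lower, against 39.5% of all genes (21.4% higher and 18.1% lower). ELL2 joined the genes with a rise (0.12 ± 0.044, adjusted p = 0.0381), and this call was lost in 5 of the 6 fits that left out a library (adjusted p from 0.0513 to 0.213) and with DESeq2 (0.334). JCHAIN had a log2 fold change of 0.0461 ± 0.052 (adjusted p = 0.518), and its difference from 150 nM was called only without 500 nM replicate 2 (0.15, adjusted p = 0.0392). DESeq2 called 5 of the 9, without PRDM1 (0.0542), MZB1 (0.0684) and ELL2, against 18.4% of all genes (11.7% higher and 6.66% lower). The gene sum of TNFRSF17 was not called when peaks within 10 kb were added (0.065, adjusted p = 0.125). For 150 nM against DMSO 0 genes were called in edgeR and in DESeq2, and 0 had an unadjusted p under 0.05 (0% of all called). For 500 nM against 150 nM 8 were called (39.9% of all), of which ELL2 (adjusted p = 0.0491) was lost in each fit that left out a library, at 0.0594 to 0.242. The MZB1 gene sum was -0.12 ± 0.030 (adjusted p = 0.00165) against DMSO and -0.063 with loess offsets (0.105), and without 150 nM replicate 1 its difference from 150 nM was not called (0.0690).

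Per kilobase of peak, the H3K4me3 level in DMSO at the most abundant peak over each gene was highest at IRF4 (59.3 CPM per kb), followed by MZB1 (44.2), CD38 (35.1), ELL2 (31.9), PRDM1 (22.8), XBP1 (19.4), TNFRSF17 (10.8), JCHAIN (9.68) and SDC1 (1.18). The DMSO libraries of neighbours in this order did not overlap. At 500 nM SDC1 reached 7.28 CPM per kb and was still the lowest of the 9. The H3K27ac order in DMSO was MZB1 (27.1 CPM per kb), CD38 (23.7), TNFRSF17 (20.9), IRF4 (18.6), PRDM1 (16.3), ELL2 (13.0), XBP1 (7.32) and JCHAIN (6.64). There IRF4 and PRDM1 overlapped, as did XBP1 and JCHAIN. SDC1 had no H3K27ac peak.

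Likeness to PRDM1 and IRF4 was described by Pearson's r of log2 CPM over the 6 H3K4me3 libraries, among 49 genes of the lists used here. The libraries of each group share their treatment, so the points are not independent. For the PRDM1 peak from 106097275 the closest were ITM2C (0.76), ELL2 (0.71) and SDC1 (0.70). For IRF4 they were CCR10 (0.97), CR2 (0.94) and HERPUD1 (0.94).

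Other genes of plasma cells were called about as often as genes in general. Of 25 further plasma cell genes (receptors, folding and secretion factors), 23 were tested by gene sum of H3K4me3 and 9 were called, 6 higher and 3 lower, near the 39.5% of all genes (21.4% higher and 18.1% lower), with a median log2 fold change of 0.019 against -0.0070 over all genes. The largest rise was at ITM2C, a membrane protein of plasma cells, at 7.76 and 5.73 CPM in DMSO against 10.6 and 9.90 CPM at 500 nM (0.59 ± 0.12, adjusted p = 1.11e-04). The largest fall was at TNFRSF13B, the receptor TACI, at 52.7 and 50.6 against 40.9 and 40.7 CPM (-0.34 ± 0.042, adjusted p = 1.73e-08). Among these 25, CREB3L2 and SLAMF7 had no H3K4me3 peak. With loess offsets that remove the abundance trend, 7 of the 23 were called, 5 higher and 2 lower, with a median of 0.043. Over all genes that fit called 7711 in place of 8733. ITM2C was then at 0.35 (adjusted p = 0.0157 in edgeR) and TNFRSF13B at -0.31.

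Of 19 B-cell genes that plasma cells turn down, 18 were tested and 12 were called, 2 higher and 10 lower, against the same 39.5% (21.4% and 18.1%), with a median of -0.10. Falls included PAX5 and BCL6, and the largest were at SPI1, which encodes the factor PU.1 (-0.37 ± 0.042, adjusted p = 2.50e-09) and at SPIB, its relative (-0.28 ± 0.037, adjusted p = 6.34e-08). SPIB shares peaks with other genes, and without those its value was -0.12 (adjusted p = 0.171). The largest rise was at CR2, the complement receptor CD21 (1.24 ± 0.14, adjusted p = 1.12e-09). DESeq2 called 6 of the 18, 1 higher and 5 lower, and 6 of the 23 further plasma cell genes, 4 higher and 2 lower, against 18.4% of all genes (11.7% higher and 6.66% lower). With loess offsets that remove the abundance trend, 9 of the 18 B-cell genes were called, 2 higher and 7 lower. Their median was then -0.039 in place of -0.10, and 7711 genes were called in all in place of 8733. The median over all genes with these offsets is not given here. In that fit CR2 was at 0.91, SPI1 at -0.34 and SPIB at -0.25. The members and these lists were not compared by a test.

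No single H3K27ac peak of these genes passed the test in any of the 3 comparisons. Of 32 peaks 30 passed the filter on low counts, and 0 were called in edgeR for 500 nM against DMSO, where 0.923% of all 54037 peaks were. DESeq2 called 0 (0.211% of all peaks), and 4 had an unadjusted p under 0.05 in edgeR, with the lowest adjusted p at 0.165. For 150 nM against DMSO 0 were called and 0 had an unadjusted p under 0.05 (0.00185% of all peaks called). For 500 nM against 150 nM 0 were called and 7 had an unadjusted p under 0.05 (1.27% of all). DESeq2 called 0 in these comparisons too. The share of all peaks at an unadjusted p under 0.05 is not given here, so these counts are not read as an excess. A fit of the 4 libraries of 500 nM and DMSO alone called 1 peak, the CD38 peak from 15783840 (-0.48, adjusted p = 0.0439).

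CD38 was the only one of the genes whose summed H3K27ac was called. Over its 6 peaks it measured 58.2 and 56.3 CPM in DMSO, 53.2 and 57.9 CPM at 150 nM, and 43.4 and 39.9 CPM at 500 nM, with both 500 nM libraries below the other 4. The log2 fold change was -0.46 ± 0.087 (adjusted p = 0.0164) against DMSO, where 1.54% of all 21996 genes were called (0.659% lower), and -0.42 ± 0.086 (adjusted p = 0.0248) against 150 nM, where 1.46% were (0.309% lower). Without either DMSO library or either 500 nM library the adjusted p against DMSO was between 0.101 and 0.302, and with DESeq2 it was 0.209. The call against 150 nM was lost without either DMSO or either 500 nM library (0.0610 to 0.406) and with DESeq2 (0.358). For 150 nM against DMSO 0 of 8 gene sums were called in edgeR or DESeq2 and 0 had an unadjusted p under 0.05 (0% of all genes called).

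All 6 CD38 peaks of H3K27ac had a log2 fold change below 0 at 500 nM, from -0.83 to -0.12. The peak at chr4:15778369-15779806, over the start, measured 35.2 and 33.1 CPM in DMSO, 29.5 and 34.7 CPM at 150 nM, and 28.4 and 24.8 CPM at 500 nM (-0.35 ± 0.15, adjusted p = 0.325). The groups of DMSO and 500 nM did not overlap there. Inside the gene, the peak at chr4:15782992-15783657 measured 7.13 and 9.83 CPM in DMSO, 8.07 and 8.86 CPM at 150 nM, and 5.09 and 4.50 CPM at 500 nM (-0.83 ± 0.28, adjusted p = 0.172), and that at chr4:15783840-15784934 measured 24.8 and 23.1 CPM in DMSO, 19.3 and 26.2 CPM at 150 nM, and 16.8 and 17.6 CPM at 500 nM (-0.48 ± 0.18, adjusted p = 0.229). H3K4me3 at the CD38 start was lower at 500 nM too.

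IRF4 carried 9 H3K27ac peaks, 8 of them tested. The strongest, over the start (chr6:390637-394258), measured 62.8 and 72.0 CPM in DMSO and 49.9 and 70.5 CPM at 150 nM. At 500 nM it measured 71.8 and 77.4 CPM, which overlapped DMSO (0.14 ± 0.12, adjusted p = 0.709 in edgeR). Both 500 nM libraries lay above both 150 nM libraries (0.30 ± 0.12, adjusted p = 0.330). That difference was called in edgeR with a term for a split of the libraries (0.49, adjusted p = 0.00168). The split sets DMSO replicate 2 and 150 nM replicate 2 against the rest. Without 150 nM replicate 2 the difference was 0.58. Inside the gene, a weak peak at chr6:398899-399318 measured 2.53 and 2.61 CPM in DMSO, 2.12 and 2.64 CPM at 150 nM, and 6.03 and 5.28 CPM at 500 nM, where both 500 nM libraries were above the other 4 (1.13 ± 0.38, adjusted p = 0.165). All 5 tested peaks further inside the gene had values above 0 at 500 nM, from 0.21 to 1.13, and none was called. The 2 peaks before the gene had values of -0.15 and 0.34. Summed over its peaks, IRF4 measured 70.2 and 76.3 CPM in DMSO, 60.0 and 72.0 CPM at 150 nM, and 81.7 and 83.7 CPM at 500 nM (0.17 ± 0.091 against DMSO, adjusted p = 0.376). Against 150 nM the summed value was 0.32 ± 0.091 (adjusted p = 0.115), and without 150 nM replicate 2 it was 0.46 and was called (0.00128).

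**Figure D4:**
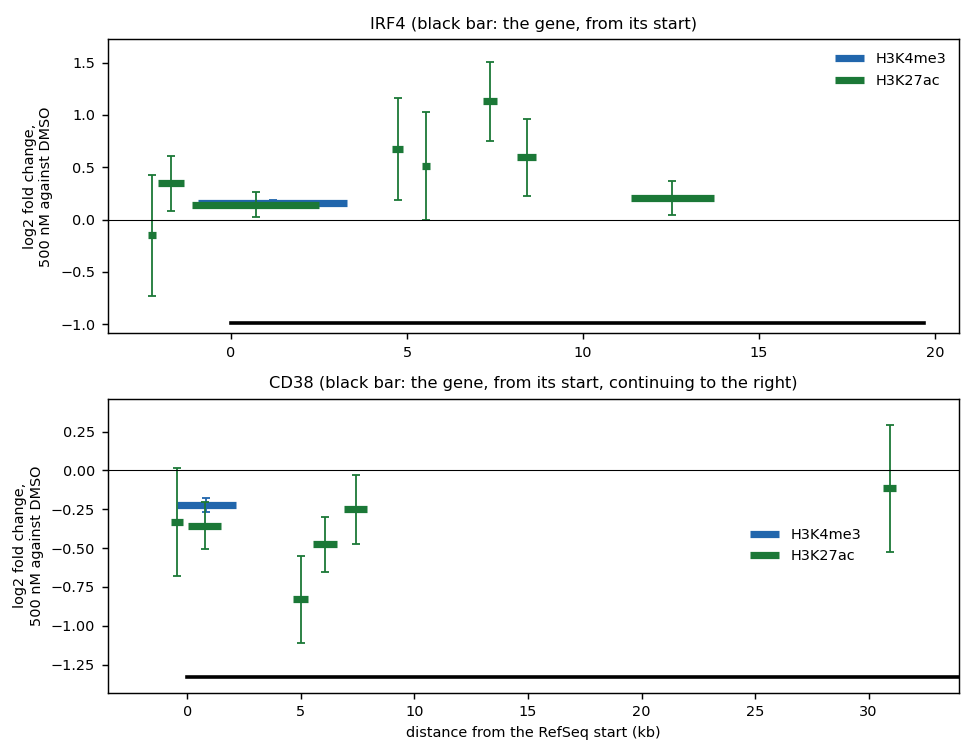
Log2 fold change at 500 nM against DMSO (y axis, with standard error bars) at each tested peak of IRF4 (upper panel) and CD38 (lower panel), placed by distance from the RefSeq start in kb (x axis); bar length is the peak's length, blue is H3K4me3 and green is H3K27ac. Peaks inside IRF4 reach 1.13 and all CD38 peaks lie below 0, down to -0.83.

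PRDM1 carried 4 H3K27ac peaks, none called, with log2 fold changes from 0.026 to 0.22. The upstream peak (chr6:105991957-105993048) measured 19.1 and 16.4 CPM in DMSO, 12.3 and 17.7 CPM at 150 nM, and 20.5 and 15.4 CPM at 500 nM, and its groups overlapped (0.0257 ± 0.19, adjusted p = 0.981). The H3K4me3 peak beneath it was the one that rose. The peaks over the start windows at chr6:106085357-106086171 and chr6:106097494-106098804 had log2 fold changes of 0.22 ± 0.30 (adjusted p = 0.834) and 0.14 ± 0.21 (adjusted p = 0.859). The first of these depended on single libraries, at 0.87 without DMSO replicate 2 and -0.19 without DMSO replicate 1. XBP1 had 1 H3K27ac peak (chr22:28799664-28801024), measuring 11.5 and 8.42 CPM in DMSO, 11.3 and 11.1 CPM at 150 nM, and 11.9 and 14.7 CPM at 500 nM. Its 500 nM libraries were the highest of the 6, with a log2 fold change of 0.42 ± 0.22 (adjusted p = 0.469).

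SDC1, with the largest H3K4me3 change of the 9, had no H3K27ac peak within 5 kb. The nearest lay 66.4 kb beyond one end of the gene and held 2 and 6 counts in DMSO and 12 and 11 at 500 nM, and the nearest on the other side lay 148.5 kb away. TNFRSF17 had its main H3K27ac peak over the gene (chr16:11962865-11969175), measuring 131 and 132 CPM in DMSO, 134 and 121 CPM at 150 nM, and 125 and 132 CPM at 500 nM (-0.0366 ± 0.095, adjusted p = 0.927), with overlapping groups. Its other 3 peaks, outside the gene, had log2 fold changes from -0.38 to 0.29. Whether the marks differed in their change at TNFRSF17 was not tested.

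MZB1 lay under a single broad H3K27ac peak (chr5:139384040-139394224), which also covers PROB1, SLC23A1 and SPATA24. It measured 263 and 289 CPM in DMSO, 271 and 313 CPM at 150 nM, and 303 and 287 CPM at 500 nM, and its groups overlapped (0.0981 ± 0.082, adjusted p = 0.703). ELL2 shared its peak (chr5:95960962-95961786) with CAST and measured 9.66 and 11.8 CPM in DMSO, 9.56 and 9.80 CPM at 150 nM, and 8.48 and 11.7 CPM at 500 nM (-0.0984 ± 0.23, adjusted p = 0.921). JCHAIN had 6 H3K27ac peaks, and its strongest (chr4:70664605-70667021) measured 17.5 and 14.6 CPM in DMSO, 22.9 and 8.48 CPM at 150 nM, and 23.0 and 19.6 CPM at 500 nM. The 150 nM libraries there were the second highest and the lowest of the 6. The other 4 tested peaks had values from -0.38 to 0.42 at 500 nM. The value of the strongest at 500 nM against DMSO was 0.41 ± 0.22 (adjusted p = 0.485). Without 150 nM replicate 1, this peak was called lower at 150 nM than in DMSO (-0.90, adjusted p = 0.0366) and higher at 500 nM than at 150 nM (1.32, adjusted p = 1.74e-06).

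**Figure D5:**
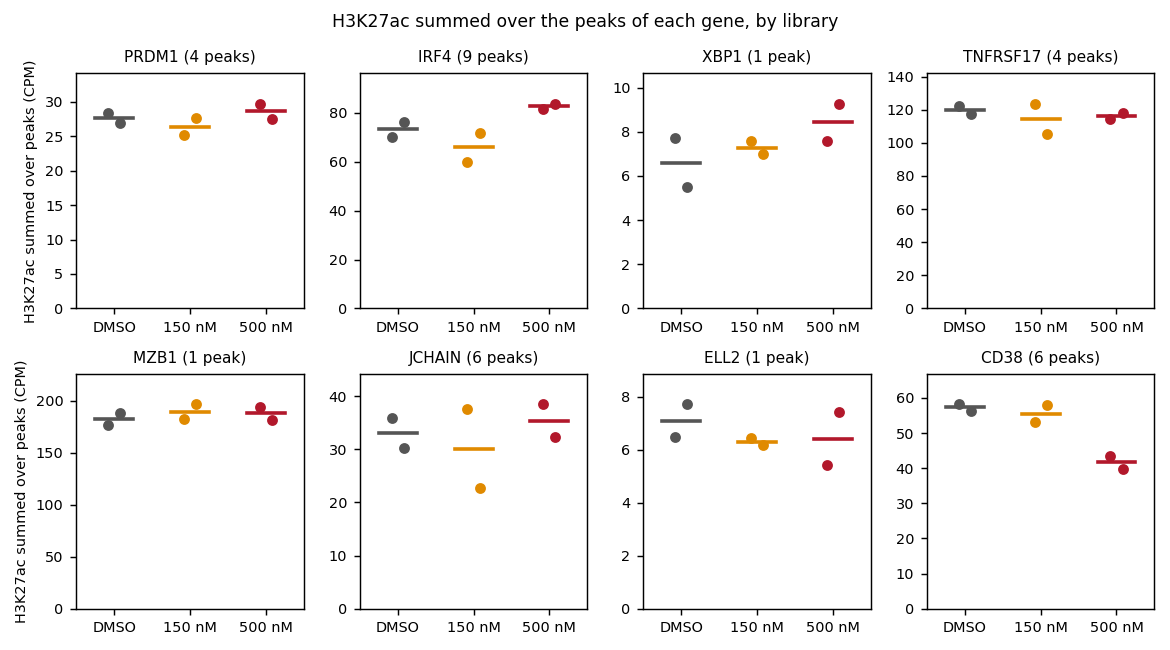
H3K27ac summed over the peaks of each gene in CPM (y axis, from 0, with its own range in each panel) by treatment (x axis); points are single libraries and lines are the means of 2. CD38 is lower at 500 nM (43.4 and 39.9 CPM) than in DMSO (58.2 and 56.3 CPM), and the JCHAIN points at 150 nM are spread from 22.6 to 37.5 CPM.

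Among the other plasma cell genes, 23 were tested for H3K27ac by gene sum and 0 were called in edgeR at 500 nM against DMSO or DESeq2 (6 at an unadjusted p under 0.05), where 1.54% of all genes were called in edgeR and 0.373% in DESeq2. Of the B-cell genes that plasma cells turn down 17 were tested and 0 were called by either tool (5 at an unadjusted p under 0.05), with 13 of the 17 values below 0. The median log2 fold change was 0.073 over the 23 and -0.13 over the 17, against 0.0044 over all genes. The share of all genes at an unadjusted p under 0.05 is not given here, so the 6 and the 5 are not read as an excess. Without 150 nM replicate 1, or without 150 nM replicate 2, 4 of the 23 were called (2 higher and 2 lower) and 6 of the 17 (all lower). The calls over all genes rose as well, to 8.92% without replicate 1 (3.84% higher and 5.08% lower) and to 8.54% without replicate 2 (3.53% higher and 5.01% lower).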

How the data were processed

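The submitters' processing notes name Trim Galore 0.6.7, BWA 0.7.17-r1188, Picard 2.27.4, MACS2 2.2.7.1, deepTools 3.5.1, edgeR 3.42.4 and the build GRCh38, with no roles. The deposited tables hold raw read counts per consensus peak, 1 table per mark, counted by the authors with featureCounts 2.0.1 per the file headers: without strand, a read may count in several peaks, and a fraction of 0.2 of it must lie in a peak. The headers record an option for paired reads although the labels give single reads, so whether single reads or fragments were counted is unclear. How the consensus was made is not given in the sources used here. Coordinates are as deposited with 1 added to the start. Of 30 libraries 12 were analysed. Input chromatin, H3K9me2 and H3K9me3 libraries (6 each) were not used here.

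Peaks were assigned to genes of the RefSeq table for GRCh38.p14, inside or within 5 kb. Whether a peak lies in an exon or intron was not analysed here. The 6 libraries of each mark were fitted together in edgeR 4.0.16 (R 4.3.3): filterByExpr by group, TMM, glmQLFit and glmQLFTest, with Benjamini-Hochberg adjustment over all tested peaks, or over all genes for sums, at 0.05. Standard errors come from the F statistic. CPM are relative to counts in tested features after TMM scaling, so a change at all peaks alike is not measured. Intervals and tests cover counting error and the spread of 2 libraries, and without molecular identifiers, reads cannot be taken as independent molecules. The fits were tested on simulated counts in which 200 features had a log2 change of 1 at 500 nM. For H3K4me3 77.5% of the changed peaks and 96% of the changed gene sums were recovered. For H3K27ac the shares were 47% and 88%, so a missed call at a single H3K27ac peak was common there. False calls were 12 of 167 for H3K4me3 peaks, 6 of 198 for its gene sums, 1 of 95 for H3K27ac peaks and 9 of 185 for its gene sums.

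The members, the lists and the library split were chosen with earlier results of these data known. In full are given start peaks, called peaks and the most abundant peak of each gene. From the 2 gene lists together the 3 largest called rises and falls in H3K4me3 were taken, of which CR2, ITM2C, SPI1, TNFRSF13B and SPIB are named and 1 is not reported here; the other list genes named, and the H3K27ac peaks of CD38 and IRF4 other than the most abundant, were chosen after their values were seen. Alternatives included the Wald test of DESeq2 1.42.0. Figures were drawn with matplotlib 3.10.9.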

Additional observations from a re-analysis of the deposited data

How the results depend on the processing

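No direction of a called result reversed under any alternative. At 500 nM against DMSO, 11 values that were not called changed sign in 17 fits that left out a library (PRDM1, JCHAIN, TNFRSF17, MZB1 and ELL2), with adjusted p of 0.720 or more. Of the counts of called peaks and genes, 198 stayed within 1.5 times of the reported count and 24 did not. For H3K4me3 the exception was the gene sums at 500 nM against DMSO, where DESeq2 called 5 in place of 8. Leaving out single libraries gave 7 to 8 of these gene sums and 7 of the 13 peaks each time. For H3K27ac peaks the reported counts were 0. At 500 nM against DMSO the 4 libraries of the contrast gave 1, at 150 nM against DMSO leaving out a library gave 0 to 1, and at 500 nM against 150 nM a term for a split of the libraries (DMSO replicate 2 and 150 nM replicate 2 against the rest) gave 1 and leaving out a library 0 to 2. For H3K27ac gene sums at 500 nM against DMSO, where 1 was reported, DESeq2 gave 0, an adjusted p under 0.01 gave 0 and leaving out a library 0 to 1. At 150 nM against DMSO leaving out a library gave 0 to 1 (reported 0). At 500 nM against 150 nM (reported 1) the 4 libraries of the contrast, DESeq2 and an adjusted p under 0.01 each gave 0, the library split gave 2 and leaving out a library 0 to 2.

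Same-numbered libraries deviated together only weakly (r of 0.0047 to 0.049 for H3K4me3 peaks and 0.0026 to 0.13 for H3K27ac peaks). Replicates of H3K4me3 differed by little more than counting noise, which can hide a shared effect. These values therefore cannot tell whether same-numbered libraries shared a culture or day. With the replicate number as a block, H3K27ac gene sums at 500 nM against 150 nM gave 2 calls in place of 1, IRF4 being the added one (0.33, adjusted p = 0.0227), and no other count of members changed.

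Over all features at 500 nM against DMSO, DESeq2 called 3479 of the H3K4me3 peaks in place of 8034 and 4058 gene sums in place of 8733, and 4415 gene sums were called when peaks over another gene were left out. H3K27ac calls ranged from 114 to 2105 peaks (reported 499) and from 36 to 2003 gene sums (reported 338). With 1 library left in a group, that library is assumed to vary like the others. A median of 21 to 24 counts per H3K27ac peak limits what a single peak can show.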

Other observations

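The further plasma cell genes whose H3K4me3 gene sum was called higher at 500 nM JIB-04 were ITM2C, DERL3 (0.35), HERPUD1 (0.30), CCR10 (0.28), TXNDC5 (0.23) and CCPG1 (0.13) on the log2 scale. These are 6 of 23 tested, where 21.4% of all genes were called higher. DESeq2 called 4 of the 23 higher (11.7% of all genes), and edgeR with loess offsets 5. DERL3 and HERPUD1 take part in the disposal of misfolded proteins from the endoplasmic reticulum, TXNDC5 is a protein disulfide isomerase and CCR10 a homing receptor of IgA plasma cells. Those that fell were TNFRSF13B, the co-receptor CD27 (-0.19) and the B-cell coactivator POU2AF1 (-0.11).

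Among markers of other cell types, H3K4me3 gene sums were also higher at CD14 (6.04 and 4.98 CPM in DMSO, 9.25 and 8.53 CPM at 500 nM, log2 fold change 0.68, adjusted p = 3.19e-05) and at S100A8 (0.46 and 0.101 CPM against 0.80 and 1.05 CPM, 1.60, adjusted p = 0.00329), in edgeR's quasi-likelihood test. Calls of this kind were common, with 21.4% of all genes higher. Of the weakest H3K4me3 peaks, 26.1% and 34.1% in the 2 lowest classes by level were called higher. The epithelial keratin genes KRT8 and KRT18 share 1 peak. It held 6 and 3 counts in the DMSO libraries, 6 and 5 in those of 150 nM, and 19 and 12 in those of 500 nM (1.83, adjusted p = 0.00169 in the same test). Only the 500 nM counts were large enough for the filter on low counts. The keratin genes were thus tested only because they were high there, and this adjusted p cannot be taken at face value. S100A8 lay near or below that filter in DMSO (0.46 and 0.101 CPM), so its adjusted p cannot be taken at face value either. EPCAM, the other epithelial marker with a peak, was at -0.12 (adjusted p = 0.0676). No T-cell or erythroid marker was called at 500 nM against DMSO, of 2 and 1 tested.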
